A study of Mus musculus with 9 samples.

Results

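The regions described here had ATAC-seq peaks in wild-type E14 cells and in neither of the construct-bearing lines. They were chosen by peak calls alone and are the autosomal regions where all 3 wild-type (WT) libraries had a peak and none of the 6 libraries of those lines did. Peaks of the 9 deposited lists were merged into regions where they overlapped by at least 1 bp, which gave 112588 autosomal regions. Of these, 656 met the rule, or 0.583% of all regions tested. The same rule gave 1334 regions private to TetR (1.18%) and 670 private to TetR-MYBTA (0.595%). Because presence and absence in all 9 libraries chose these regions, the counts and the places in the WT lists below are descriptions and carry no test.

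E14 is a line of mouse embryonic stem cells, and the study used a variant named TOT2N in every group. The sample titles name no construct for WT cells, and they do not say how the TOT2N variant differs from E14. TetR cells carried a stably integrated TetR construct, which encodes the DNA-binding tetracycline repressor, and TetR-MYBTA cells carried a stably integrated TetR-MYBTA construct. Each line had 3 libraries, the labels give no treatment or time, and they do not state whether replicates came from separate cultures or whether a line is 1 clone. Spread between libraries, on which the p-values rest, may thus be technical.

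In ATAC-seq the Tn5 transposase inserts adapters into DNA that is not wrapped in nucleosomes, so reads pile up at active promoters, enhancers and insulators. Promoters of widely used genes tend to be open in every cell of a culture, whereas distal elements vary more between cell states. A region that passes a peak caller in 1 line and not in another can have lost its signal or can lie close to the calling threshold, and lists of positions alone do not tell these apart.

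Libraries held 16.4 to 23.0 M tags and lists 45136 to 70230 peaks, with TetR-MYBTA replicate 3 the shortest list and TetR replicate 1 the longest. Among 7 stem cell marker genes, Sox2, Klf4 and Tfcp2l1 had a peak within 1 kb of a gene end in all 9 libraries, Nanog in 4 and Pou5f1 in 2, while Esrrb and Zfp42 had one in 0. Of 7 fibroblast genes none had such a peak in all 9. Col1a1 and Col1a2 had one in 8, Thy1 in 7, Prrx1 in 6, Twist2 in 1, and Col3a1 and Postn in 0. The part of other cells in the results was not tested.

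Of the 656 regions, 28 touched a promoter window of the RefSeq table (GRCm38.p6, the coordinates of mm10), which reaches from 250 bases before a gene start to 50 after it. They touched 33 windows of 31 genes, 20 of them protein-coding. The sequences below are the 250 bases before the start, read 5′ to 3′ in the direction of the gene, and capitals mark the bases inside the WT-private region. The first 5 are promoters touched by the gene-end regions that stood highest in the WT lists. Olfm1 and Fut4 were added after their values were seen, Olfm1 because the next peak of another line was the farthest away of these 28 and Fut4 because its whole window lay in the region.
Mok: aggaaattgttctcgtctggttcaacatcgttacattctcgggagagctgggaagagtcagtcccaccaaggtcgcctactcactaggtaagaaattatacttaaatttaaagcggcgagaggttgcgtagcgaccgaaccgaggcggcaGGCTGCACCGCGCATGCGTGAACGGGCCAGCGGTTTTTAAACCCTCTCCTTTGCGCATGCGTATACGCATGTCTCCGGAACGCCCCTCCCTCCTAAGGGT
Babam2: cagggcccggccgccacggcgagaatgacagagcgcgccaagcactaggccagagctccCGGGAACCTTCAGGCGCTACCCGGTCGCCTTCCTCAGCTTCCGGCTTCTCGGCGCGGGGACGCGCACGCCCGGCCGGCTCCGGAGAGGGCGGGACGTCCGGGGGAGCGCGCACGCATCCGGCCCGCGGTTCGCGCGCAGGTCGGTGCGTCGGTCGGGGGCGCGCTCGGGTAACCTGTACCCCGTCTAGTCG
Basp1: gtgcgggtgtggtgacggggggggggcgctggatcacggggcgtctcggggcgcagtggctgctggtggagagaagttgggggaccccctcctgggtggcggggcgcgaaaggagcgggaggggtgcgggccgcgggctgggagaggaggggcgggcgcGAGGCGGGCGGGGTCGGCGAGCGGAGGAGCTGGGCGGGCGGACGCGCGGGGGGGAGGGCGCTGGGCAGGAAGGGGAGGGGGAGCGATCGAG
Tmem30b: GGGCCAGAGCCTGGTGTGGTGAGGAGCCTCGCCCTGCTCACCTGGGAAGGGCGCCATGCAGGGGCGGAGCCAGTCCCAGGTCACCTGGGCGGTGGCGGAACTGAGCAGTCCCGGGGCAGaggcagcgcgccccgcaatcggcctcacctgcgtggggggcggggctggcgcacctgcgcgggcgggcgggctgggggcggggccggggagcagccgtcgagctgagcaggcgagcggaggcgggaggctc
Cldn7: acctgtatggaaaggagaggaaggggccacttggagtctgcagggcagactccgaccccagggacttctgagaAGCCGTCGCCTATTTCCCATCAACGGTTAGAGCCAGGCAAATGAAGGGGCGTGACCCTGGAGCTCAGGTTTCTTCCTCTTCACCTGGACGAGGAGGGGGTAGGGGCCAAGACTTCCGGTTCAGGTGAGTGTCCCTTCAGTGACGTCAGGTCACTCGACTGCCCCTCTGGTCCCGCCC
Olfm1: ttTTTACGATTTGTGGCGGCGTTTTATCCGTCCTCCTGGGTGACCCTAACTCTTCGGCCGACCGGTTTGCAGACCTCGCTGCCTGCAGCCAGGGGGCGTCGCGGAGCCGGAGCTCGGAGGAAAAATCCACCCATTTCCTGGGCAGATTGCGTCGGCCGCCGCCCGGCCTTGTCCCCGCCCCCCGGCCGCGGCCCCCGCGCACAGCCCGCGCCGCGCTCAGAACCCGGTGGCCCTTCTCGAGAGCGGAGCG
Fut4: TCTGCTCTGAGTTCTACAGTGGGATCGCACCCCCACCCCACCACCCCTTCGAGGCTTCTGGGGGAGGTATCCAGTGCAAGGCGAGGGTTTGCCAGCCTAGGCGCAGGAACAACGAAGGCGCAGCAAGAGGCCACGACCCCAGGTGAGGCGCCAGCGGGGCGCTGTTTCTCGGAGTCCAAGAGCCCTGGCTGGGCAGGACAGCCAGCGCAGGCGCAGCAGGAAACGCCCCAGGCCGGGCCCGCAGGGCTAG

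The printed stretches lie at chr12:110840940-110841189 for Mok (minus strand), chr5:31697800-31698049 for Babam2 (plus), chr15:25413765-25414014 for Basp1 (minus), chr12:73546396-73546645 for Tmem30b (minus), chr11:69965171-69965420 for Cldn7 (plus), chr2:28205439-28205688 for Olfm1 (plus) and chr9:14752123-14752372 for Fut4 (minus). Of the 250 bases, 100 lay in the WT-private region at Mok, 191 at Babam2, 91 at Basp1, 119 at Tmem30b, 177 at Cldn7, 248 at Olfm1 and 250 at Fut4. Most of these windows were rich in G and C. Over the 33 windows, each taken at its full 300 bases, the median GC content was 63.3% and the median number of CpG was 18, against 53% and 7 in all 31396 autosomal windows and 62% and 22 in the 7847 windows touched by a region with a peak in all 9 libraries.

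Short motifs were looked up in the full windows on both strands, as letters only. The GC box GGGCGG, which SP and KLF factors bind, was present in 21 of the 33 windows (63.6%) and in 36% of all windows. The 33 windows were richer in G and C than all windows. Motif shares are not given for the windows touched by a region with a peak in all 9 libraries, whose GC content was closer. The letters AACNGNC, a MYB motif, were in 9 (27.3%) against 32.7%, CCAAT in 12 (36.4%) against 37.3%, and CCGGAAG, an ETS motif, in 5 (15.2%) against 9%. TGCAAAT (POU factors) was in 1 window and 4.05% of all, ACAATGG (SOX factors) in 2 and 3.61%, TGANTCA (AP-1) in 2 and 7.84%, ATGGCGG (YY1) in 3 and 4.07%, and the E-box CACGTG in 0 and 7.14%. Windows of 1 gene can overlap, and a match is a match of letters, not a bound site. In the printed sequences the GC box occurred 4 times at Basp1, 3 of them inside the WT-private region and 2 of these overlapping each other. It occurred 6 times at Tmem30b, of which 2 were inside, and all 6 followed the printed strand. At Olfm1 it occurred 2 times, both on the opposite strand and inside the region. Mok held 1 MYB match, 80 bases before its start and inside the region, and no GC box.

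Whether the choice held in a library that took no part in it was read by leaving out 1 replicate number of every line at a time. Regions with a peak in the other 2 WT libraries and in none of the other 4 libraries were then looked up in the 3 libraries left out. With replicate 1 left out, 2432 regions were chosen, and 48% had a peak in WT replicate 1, 28.3% in TetR replicate 1 and 18.6% in TetR-MYBTA replicate 1. With replicate 2 left out, the 1729 chosen regions had a peak in 61.8% in WT, 21.9% in TetR and 18.2% in TetR-MYBTA. With replicate 3 left out, the 1561 chosen regions gave 53.4%, 13.4% and 8.46%. In each of these 3 rounds the held-out WT library stood above both others. The WT mean was 54.4 ± 6.95% (SD over 3 rounds), with 21.2 ± 7.47% in TetR and 15.1 ± 5.74% in TetR-MYBTA. The rounds share libraries, so no test is given. For scale, 85.8 to 91.4% of all regions with a peak in 2 WT libraries had one in the third, whatever the other lines showed. Regions chosen in the same way for TetR had a peak in 59.9 ± 10.5% of the held-out TetR libraries, and those for TetR-MYBTA in 55.7 ± 15.9%.

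**Figure D1:**
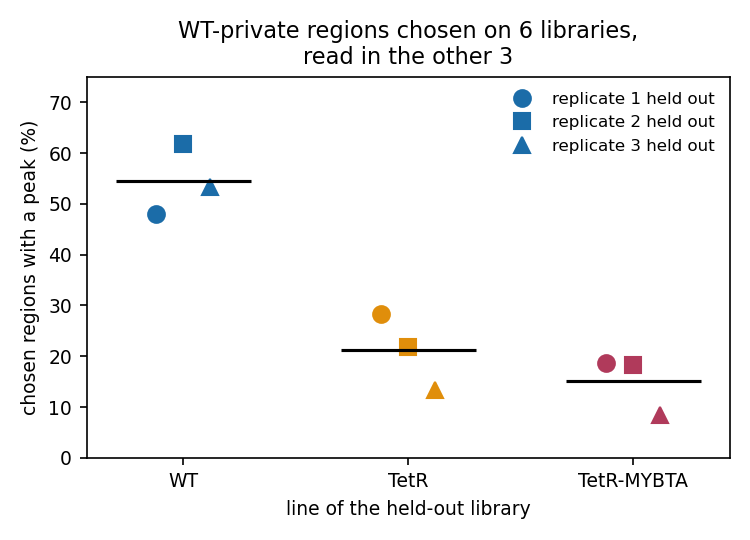
Percent of chosen regions (y axis) with a peak in the held-out library of each line (x axis), where regions were chosen as WT-private on the 6 libraries of the other replicate numbers. Symbols are the replicate number held out and lines are means over 3 rounds. All 3 WT values, from 48 to 61.8%, lie above the 6 values of TetR and TetR-MYBTA, from 8.46 to 28.3%.

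The regions stood low in the WT lists. A region's percentile is its row in a list, 100 being the first row, and rows followed the peak numbers that HOMER assigned (lowest rank correlation within a chromosome 0.990). Nearby low percentiles often fell in order of chromosome and position. In WT replicate 1 they ran from 15.9 on chromosome 1 through 13.6 on chromosome 10 and 13.4 on chromosome 11 to 13.1 on chromosome 12. Differences of a few points between low percentiles may thus follow genome order, also among the lowest regions. In WT replicate 1 the 656 regions ranged from the 0.101 to the 86.4 percentile with a median of 25.6. In WT replicate 2 they ranged from 0.105 to 88.7 with a median of 30.2, and in WT replicate 3 from 0.0302 to 90.0 with a median of 27.1. The 3 ranges overlap almost throughout. The mean over the WT lists exceeded 50 in 78 regions, and 45 regions were above 50 in each WT list, whereas 115 were at or under 25 in each. A single region's percentile had a median SD of 10.6 over the 3 WT libraries.

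Regions open in WT formed a gradient with the number of other libraries that shared them. Of 40216 autosomal regions with a peak in 3 of 3 WT libraries, the 656 private ones made up 1.63%. Their median of the mean WT percentile was 25.9, with 5 and 95% points at 10.2 and 61.2. It was 27.8 in the 885 regions shared with 1 of the other 6 libraries, 29.4 with 2, 34.9 with 3, 40.6 with 4, 48.0 with 5, and 74.4 in the 25232 regions with a peak in all 9. The share within 1 kb of an end of a protein-coding gene ran the same way, from 8.08% in the private regions to 12.1% with 1 other library and 30.3% with 6.

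**Figure D2:**
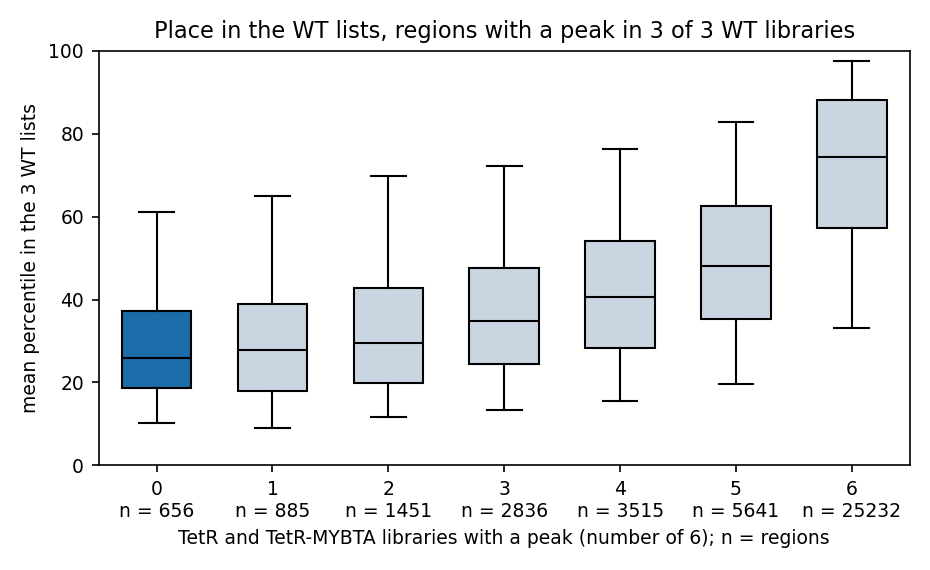
Mean percentile in the 3 WT lists (y axis; 100 is the first row) of regions with a peak in 3 of 3 WT libraries, by how many of the 6 TetR and TetR-MYBTA libraries also had a peak (x axis). Boxes show quartiles and the median, whiskers the 5 and 95% points; the private regions, at 0, have a median of 25.9 and those shared with all 6 a median of 74.4.

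The edge of the rule was well filled. Among the 885 regions with a peak in 1 other library, that library was TetR replicate 1 in 265, TetR replicate 2 in 181 and TetR replicate 3 in 94. It was TetR-MYBTA replicate 1 in 132, replicate 2 in 157 and replicate 3 in 56. Within each construct line the shortest list thus contributed the fewest. In that library the peak stood at a median percentile of 18.1. A further 1866 regions had a peak in 2 of 3 WT libraries and none of the other 6, and in 805 of these the WT library without a peak was replicate 1, the shortest WT list. The lowest regions inside the rule lay in Sdk1 (chr5:141580199-141580504, percentiles 0.853, 5.81 and 2.62 in WT replicates 1 to 3), Cdk13 (chr13:17714765-17715034, 0.525, 8.07 and 1.78) and Pla2g4a (chr1:149950276-149950573, 1.07, 3.26 and 6.98). The highest regions just outside it stood far up the lists. One at an end of Ripk2, which encodes a kinase of innate immune signalling (chr4:16163537-16163765), had percentiles of 97.8, 98.0 and 97.7 in WT and 98.5 in TetR-MYBTA replicate 2. One in the zinc transporter gene Slc39a10 (chr1:46853377-46853676) had 96.2, 98.3 and 98.3 in WT and 96.6 in TetR-MYBTA replicate 1, and one at an end of Erg28 (chr12:85824823-85825113) had 97.7, 97.7 and 97.1 in WT and 83.1 in TetR-MYBTA replicate 3.

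Leaving out a library drops a condition of the rule, so a higher count follows from the rule itself. The count was 1470 without WT replicate 1, 1120 without WT replicate 2 and 1253 without WT replicate 3. With 1 of the 6 other libraries left out it was 713 to 924. With lists cut to the 45136 first rows, 596 regions met the rule, and they overlapped 187 of the 656. In the upper 50% of each list 449 regions met it and overlapped 45 of the 656. Membership thus depended on list length, more than the count did.

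A peak of another line was often near. The nearest one lay 5.28 kb away in the median, 136 of the 656 regions (20.7%) had one within 1 kb, and 27 had one within 100 bp. The headers give HOMER's minimum distance between peaks of 1 library as 386 to 416 bp. From edge to edge, which need not be how HOMER measures, 72 regions had a peak of another line within 416 bp. TetR had a peak within 1 kb of 110 regions and TetR-MYBTA of 93, with 67 shared, and the median distances were 6.43 kb to TetR and 8.50 kb to TetR-MYBTA. The other 520 regions (79.3%) had none within 1 kb, and 18 had none within 50 kb. Private regions of the other lines gave medians of 5.02 kb for TetR, with 16.3% within 1 kb, and 12 kb for TetR-MYBTA, with 9.4% within 1 kb. These differences between sets of regions were not tested. Regions with such a neighbour stood at a median percentile of 31.8 and those without at 24.9.

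**Figure D3:**
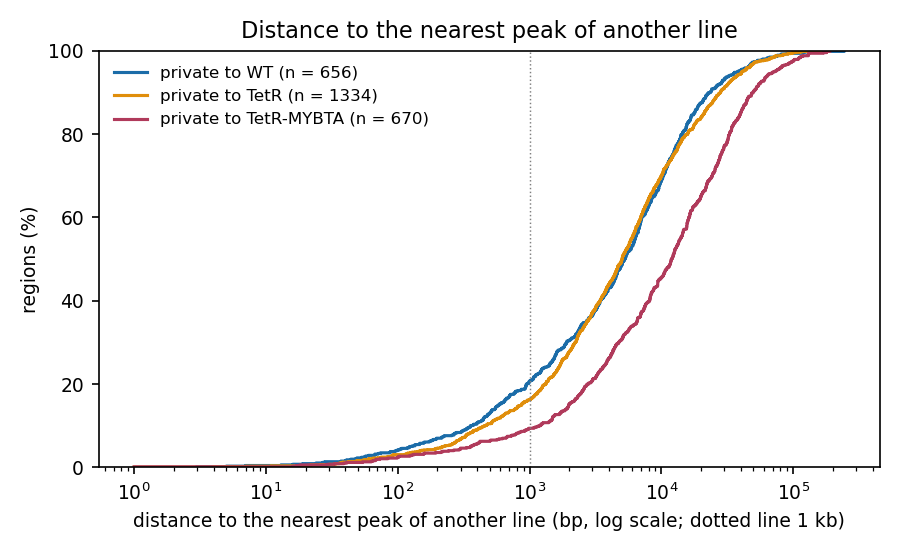
Cumulative percent of private regions (y axis) by distance in bp to the nearest peak of another line (x axis, log scale) for the regions private to WT (n = 656), TetR (n = 1334) and TetR-MYBTA (n = 670). At 1 kb (dotted line) the curves stand at 20.7%, 16.3% and 9.4%.

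In a few places a WT-private region and a TetR-private region lay side by side. The closest pair was 37 bp apart at an end of Tbc1d30, which encodes a TBC-domain protein (WT chr10:121351013-121351327, TetR chr10:121351364-121351590). The next was 48 bp apart in 2900026A02Rik (WT chr5:113209447-113209708, TetR chr5:113209146-113209399), and the third 71 bp apart in BC016579 (WT chr16:45644529-45644776, TetR chr16:45644847-45645107). In all, 4 regions had a TetR-private one within 1 kb and 48 (7.32%) within 50 kb. For TetR-MYBTA, whose private regions are fewer, the numbers were 0 and 10 (1.52%).

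By position, 53 of the 656 regions (8.08%) lay within 1 kb of an end of a protein-coding gene, 285 (43.4%) inside such a gene and 318 (48.5%) between genes. Over all autosomal regions the shares were 16.4%, 38.6% and 45.1%, and over regions with a peak in all 9 libraries 30.3%, 30.6% and 39.1%. Regions private to TetR gave 7.65%, 54.6% and 37.8%, and those private to TetR-MYBTA 2.84%, 27.3% and 69.9%. Promoter windows were touched by 4.27% of WT-private regions, 2.62% of TetR-private, 1.49% of TetR-MYBTA-private and 9.99% of all regions. Exons and introns were not used here, so a position inside a gene is not divided further. For WT-private regions the median distance to a region with a peak in all 9 libraries was 23.5 kb. It was 21.0 kb for TetR-private and 34.0 kb for TetR-MYBTA-private regions, so WT lay between them. The 13.6 kb for all regions is not a like comparison, because all regions include those with a peak in all 9 libraries. Each of the 656 regions held exactly 3 peaks, spanned 205 to 532 bp (median 251), and together they covered 175 kb. The centres of the 3 WT peaks spread over a median of 48 bp, 32.5 bp in the 78 regions with a mean percentile above 50 and 58 bp in the 311 at or under 25.

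Of the regions at gene ends, 25 of 53 (47.2%) had a peak of another line in the next 1 kb, against 58 of 285 (20.4%) inside genes and 53 of 318 (16.7%) between genes. The highest at a gene end was at Lamc1, which encodes laminin gamma 1 of the basement membrane (chr1:153332701-153332936). Its percentiles were 82.1, 86.2 and 87.2 in WT replicates 1 to 3, and a peak of TetR replicate 1 lay 147 bp away. The region at the promoter of Mok, a MAP kinase-like gene, shared with the divergent non-coding gene 4921507G05Rik (chr12:110840831-110841039), had 86.4, 84.6 and 83.9. Its 3 WT peaks had centres within 6 bp, and the nearest other peak, of TetR replicate 2, was 3.20 kb away. At Babam2, a subunit gene of a BRCA1-containing DNA repair complex (chr5:31697859-31698094), the percentiles were 82.0, 75.5 and 65.2, and a TetR-MYBTA replicate 1 peak began 44 bp away. All 3 regions were thus high in each WT list, and only that at Mok had no other peak within 1 kb.

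Of the other gene-end regions named by the ranking, Tbc1d15 stood close to Babam2, with 79.9, 77.0 and 63.1 and another line's peak 760 bp away. The rest had means from 57.4 to 62.8. Basp1, a gene of a membrane-bound protein of neurons (chr15:25413572-25413855), had percentiles of 56.3, 61.2 and 71.0, with a TetR replicate 3 peak 521 bp away. Tmem30b, which encodes a subunit of lipid flippases (chr12:73546527-73546745), had 56.4, 66.8 and 62.0, with a TetR-MYBTA replicate 3 peak 60 bp away. The tight-junction gene Cldn7 (chr11:69965244-69965474) had 61.5, 60.3 and 62.1, the smallest spread of these regions (SD 0.880), and the nearest other peak was 1.22 kb away. Foxq1, a forkhead transcription factor gene (chr13:31557984-31558191), had 57.7, 59.2 and 55.3, with the nearest other peak at 1.07 kb. Mmgt2 lay at 60.1 in the mean over WT and Upk2 at 57.6, and each had another line's peak nearer than 1 kb.

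Promoter regions lower in the lists included those of Olfm1, Fut4 and Wnt3a, which were named after their values were seen. The region over the promoter of Olfm1, a gene of a secreted brain glycoprotein (chr2:28205441-28205704), had percentiles of 7.62, 59.9 and 44.4, and the nearest peak of another line was 72.5 kb away. Replicate 1 was thus far below the other 2 WT libraries there. Fut4, a fucosyltransferase gene (chr9:14752024-14752407), had 2.42, 12.6 and 16.3, with a peak of another line 157 bp away. The region beside Wnt3a, which encodes a ligand of the canonical Wnt pathway (chr11:59290970-59291253), had 9.46, 15.7 and 12.3. Both Fut4 and Wnt3a were low in each WT list.

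Away from gene ends, the highest regions without another line's peak within 1 kb lay inside genes in 5 of 7 cases. One in Smpd3, which encodes a neutral sphingomyelinase (chr8:106316738-106317077), had percentiles of 77.9, 85.6 and 85.9, with the nearest other peak at 1.42 kb. One in the glucose transporter gene Slc2a12 (chr10:22698559-22698776) had 81.9, 87.1 and 79.5, and no peak of another line lay within 11.7 kb. Those in Knop1, Zfp937 and Rnf39 had mean percentiles of 70.4, 69.3 and 69.3. Between genes, one 20.4 kb from the kinetochore gene Zwint (chr10:72634192-72634436) had 76.6, 81.6 and 63.1, and one 22.8 kb from the amino acid transporter gene Slc38a6 (chr12:73384782-73385006) had 71.0, 69.9 and 78.5, with the nearest other peak 17 kb away.

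Protein-coding genes held at most 2 of the regions: 303 held 1 and 12 held 2. These 12 were Adamts14, Cpa6, Dtx1, Efl1, Ephb2, Iffo2, Mpp7, Oxr1, Ptk2b, Rbfox1, Rhd and Synj2. Dtx1, a regulator of Notch signalling, held a region at a mean WT percentile of 59.3 (chr5:120683210-120683601) and one 4973 bp on at 19.8. Ptk2b, a focal adhesion kinase gene, held one at 63.4 (chr14:66189304-66189622) and one at 36.1 (chr14:66279367-66279628). Among neighbours on a chromosome, 4 pairs were within 1 kb and 46 within 100 kb, while the median gap was 1740 kb.

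Of 14 lists of genes of stem cells, lineages and other classes, 23 regions (3.51%) lay within 50 kb of a listed gene, against 2.03% of all autosomal regions. Within 10 kb the shares were 0.915% and 0.997%, so the order of the shares turned with the distance. For the lists on pluripotency, 3 regions lay near core and naive genes (0.457% against 0.275% of all regions) and 0 near formative and primed ones (0.157% of all). Inside Esrrb, which encodes an orphan nuclear receptor of naive cells (chr12:86385901-86386260), percentiles were 50.2, 42.5 and 35.1, with the nearest other peak 9.15 kb away. A region 6.39 kb from Utf1, a chromatin-bound factor of pluripotent cells, lay inside its neighbour Kndc1 (chr7:139937247-139937463) with 60.5, 70.7 and 69.7. The third lay 31.8 kb from the zinc finger gene Sall4, with 15.3, 39.8 and 31.8. The region near Utf1 was thus the highest of these 3 in each WT list.

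The blood and MYB-associated list had 1 region (0.152% against 0.15%), and it lay inside Myb itself, the gene of the transcription factor that the TetR-MYBTA construct is named for (chr10:21130963-21131204). Its percentiles were 17.6, 25 and 39.6 in WT replicates 1 to 3, and no peak of another line lay within 13.8 kb. The neural list had 5 regions (0.762% against 0.142%), the nearest being 7.28 kb from Neurod1, 10.2 kb from Pax7 and 13.8 kb from Tubb3. That near Neurod1 spread widely over the WT lists, with 54.2, 17.4 and 3.14. The list on DNA methylation and chromatin also had 5 (0.762% against 0.246%), none closer than the one 19.2 kb from the histone demethylase gene Kdm5b, followed by Hdac1 at 24.2 kb and Smarca4 at 25 kb.

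Imprinted genes had 3 (0.457% against 0.107%), in Gnas, a gene of a G protein subunit (chr2:174310997-174311233, percentiles 47.6, 45.1 and 14.1), 21.3 kb from Zim1 (60.6, 46.3 and 60.3) and 37.3 kb from H19 (28.1, 37.3 and 13.0). Further lists had 1 each: in Prdm1, a germ cell regulator (chr10:44447471-44447689, 13.6, 30.2 and 35.4), 15.6 kb from the trophoblast gene Tfap2c (49.4, 6.47 and 42.4), 23.0 kb from Nodal, a TGF-beta family ligand (17.5, 42.7 and 45.2), 12.5 kb from Hoxd13 (34.7, 26.3 and 40.6), 19.7 kb from B2m among housekeeping genes (37.2, 63.8 and 59.5) and 48.0 kb from the fibroblast gene Thy1 (9.9, 35.0 and 19.5). The mesoderm and endoderm list and the two-cell-like list had 0. All list counts are small, no test was made, and nothing is said of any list beyond its count.

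The regions were spread unevenly over the autosomes. Chromosomes 5 and 2 held 59 each and chromosome 4 held 53, which made 8.99%, 8.99% and 8.08% of the 656, where 6.13%, 7.65% and 6.12% of all regions lay. Chromosome 9 held 48 (7.32% against 4.96%). Chromosome 11 held 19 (2.90% against 6.35%), chromosome 6 held 20 (3.05% against 5.93%) and chromosome 1 held 37 (5.64% against 8.95%). Per 1000 regions with a peak in 3 of 3 WT libraries there were 16.3 private ones in all, with 23.7 on chromosome 5, 22.5 on chromosome 9, 8.54 on chromosome 6 and 7.77 on chromosome 11. Earlier work had picked 3 stretches where another line held a raised share of the remaining peaks, so they are given with no test. Below 44 Mb of chromosome 11 lay 2.67 ± 0.0817% of TetR-MYBTA peaks outside the private regions, against 1.76 ± 0.0305% in WT (SD, n = 3 each), and 3 private regions, or 4.14 per 1000. The rest of chromosome 11 gave 9.30, also under the 16.3 of all autosomes. From 88 Mb of chromosome 1 onward the shares were 7.32 ± 0.0400% and 4.85 ± 0.0409%, with 19 private regions, or 9.65 per 1000, where the first 88 Mb gave 15. From 68 to 84 Mb of chromosome 6 lay 0.622 ± 0.0130% of TetR peaks against 0.362 ± 0.0121% in WT, and 0 private regions among 140 with a peak in 3 of 3 WT libraries. At 16.3 per 1000, 140 regions would hold few private ones, so the 0 says little. The rest of chromosome 6 was not counted apart.

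**Figure D4:**
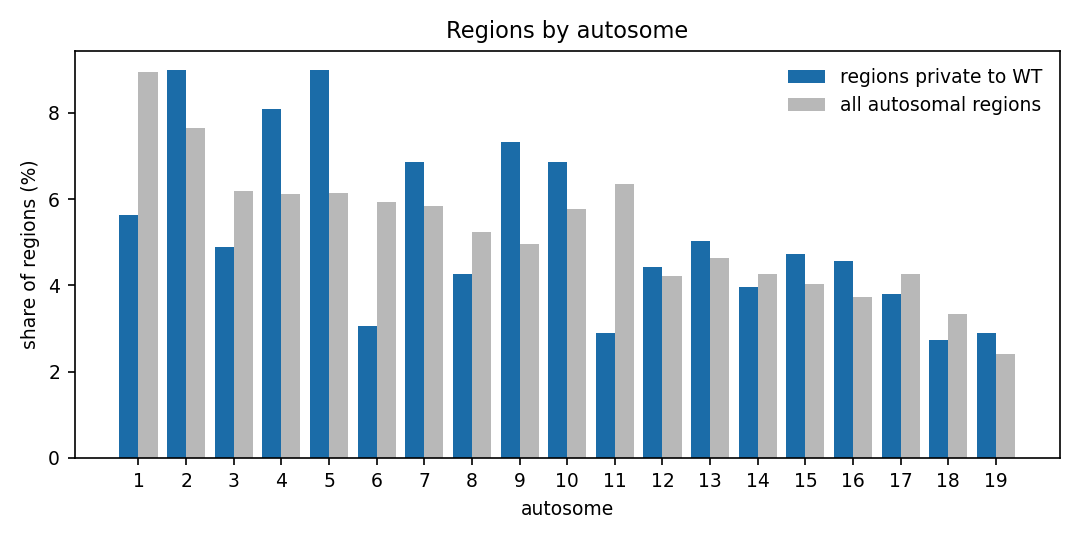
Share of the 656 WT-private regions (blue) and of all 112588 autosomal regions (grey) on each autosome, in percent (y axis). Chromosomes 5 and 9 hold more of the private regions than of all regions (8.99% against 6.13% and 7.32% against 4.96%), and chromosomes 6 and 11 less.

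Peaks outside the private regions were counted by autosome to set this beside a measure the rule did not use. Their share differed between WT and the other 6 libraries on 5 of 19 autosomes (26.3%), 3 higher and 2 lower in WT (two-sided exact permutation tests of 3 against 6 libraries, adjusted p = 0.0452 each). On chromosome 4 WT held 6.40 ± 0.0468% (SD, n = 3) and the others 6.03 ± 0.0572% (SD, n = 6). On chromosome 7 the shares were 6.42 ± 0.0668% and 5.94 ± 0.176%, on chromosome 13 4.82 ± 0.0368% and 4.65 ± 0.0495%, on chromosome 3 6.08 ± 0.0252% and 6.46 ± 0.108%, and on chromosome 14 4.01 ± 0.0270% and 4.19 ± 0.0660%. On these 5 the groups did not overlap, and the means of TetR and TetR-MYBTA lay on the same side of WT. On chromosome 7 they were 6.08% and 5.8%. WT also lay above all other 6 on chromosome 5 (6.29% against 5.85%) and chromosome 9 (5.27% against 4.81%), which did not pass (exact permutation test, adjusted p = 0.0646 each). On both, TetR lay closer to WT (6.06% and 5.11%) than TetR-MYBTA did (5.64% and 4.5%). TetR-MYBTA held 10.4% on chromosome 1 and 7.56% on chromosome 11. WT held 7.87% and 6.11% there, and TetR 7.82% and 5.75%. Shares within a library add up to the whole, so larger shares there go with smaller ones on other autosomes. What part this had in the differences from WT was not tested. The 5 calls stood at the limit of the design: 3 against 6 libraries cannot give an unadjusted p below 0.0119, and at least 5 of the 19 autosomes had to reach it for any to pass. No autosome passed with lists of equal length (smallest adjusted p = 0.113, exact) or in the upper 50% of each list (0.0905). Without 1 WT library at least 14 autosomes would have to reach the smallest exact p of 0.0357, and without 1 of the others at least 7 that of 0.0179, so the 0 calls there say nothing about stability. The differences between WT and the others kept their sign in all these settings on the 5 autosomes. With equal length and in the upper 50% only chromosomes 3 and 4 of them stayed at an unadjusted p of 0.0119 (exact permutation tests). On chromosomes 7, 13 and 14 the unadjusted exact p was 0.0238, 0.0357 and 0.0833 with equal length. In the upper 50% it was 0.0238, 0.0595 and 0.0595. On chromosome 7 the difference was 0.474 points with full lists, 0.471 with equal length, 0.589 in the upper 50% and 0.433 to 0.521 without 1 library, and on chromosome 14, where WT was lower, it was -0.184, -0.103, -0.144 and -0.204 to -0.169.

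Peaks near the private regions made up a larger share of the list in WT. The private regions were chosen in these same 9 libraries. A difference in their flanks can follow from that choice, so its p-values are not independent support. Flanks of the regions private to the other lines are not given for comparison. Peaks lying 1 to 50 kb from a private region, and not in one, made up 4.26%, 4.27% and 4.33% of autosomal peaks in WT replicates 1 to 3. In TetR they made up 4.02%, 4.10% and 4.08%, and in TetR-MYBTA 3.67%, 3.62% and 3.72%. The 3 WT libraries lay above all other 6, with TetR between. The means were 4.29 ± 0.0404% in WT, 4.06 ± 0.0410% in TetR and 3.67 ± 0.0506% in TetR-MYBTA (SD, n = 3 each), and WT exceeded the other 6 by 0.421 percentage points, a ratio of 1.11 (two-sided exact permutation test, p = 0.0238, where 3 against 6 libraries cannot go below 0.0119). WT exceeded TetR alone by 0.224 points and TetR-MYBTA alone by 0.618, each with exact p = 0.1, the smallest that 3 against 3 can give.

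Taken within each autosome, the difference in flanking peaks was 0.392 points (exact permutation test, p = 0.0238, a setting added after the data were seen). That setting leaves differences between stretches of an autosome in place. The call ended without any 1 of the WT libraries (0.398 to 0.435 points, exact p = 0.0714 each, where 2 against 6 cannot go below 0.0357), without TetR-MYBTA replicate 1 or 2 (0.381 and 0.372, exact p = 0.0536 each) and without TetR-MYBTA replicate 3 (0.392, exact p = 0.0714). It held without each TetR library (0.451 to 0.467, exact p = 0.0357 each). In all these settings the flanks were those of regions chosen in these same libraries, so none of the p-values is independent support.

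**Figure D5:**
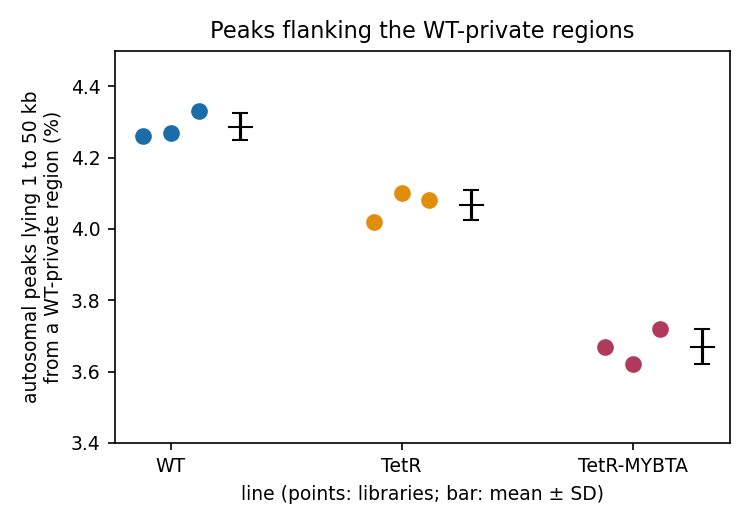
Autosomal peaks lying 1 to 50 kb from a WT-private region, in percent of each library's autosomal peaks (y axis, not starting at 0), by line (x axis), with points for libraries and bars for mean ± SD (n = 3). WT libraries sit at 4.26 to 4.33%, TetR at 4.02 to 4.10% and TetR-MYBTA at 3.62 to 3.72%.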

How the data were processed

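The 9 libraries were made by Tn5 tagging, per the labels' protocols. Among the tools in the submitters' processing notes are HOMER 4.11 with deepTools 3.5.5, Picard, Bowtie2 and Trim Galore 0.6.10, and the build is mm10. Peaks were called in each library separately, without a control, at a false discovery rate of 0.001, 4-fold over 10000 bp around and 11 or 12 tags per peak, per the file headers. Tn5 shifting and blacklist removal: not given in the sources used here. In the lists as deposited, the score is 1 in every row, so peaks were used as present or absent and ranked by row. Starts are written from 1. No depth per peak was used, so no counting interval is given.

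Distances ran from region edges. Genes were 20661 autosomal protein-coding genes of RefSeq GRCm38.p6, and 217 of 218 listed symbols matched (208 on autosomes). Exact permutation tests with Benjamini-Hochberg adjustment over autosomes were used. Regions were named by the nearest protein-coding gene: the 8 highest without another line's peak within 1 kb, the 10 highest at gene ends, the 3 highest with such a peak (1 is not reported here), up to 3 per gene list, genes with 2 regions, and examples at the rule's edge. Members and lists were chosen with earlier results of these data known. Counting was tested on simulated data of 112588 regions, where no other region could meet the rule, and 200 of 200 planted regions were recovered. The simulated peaks of a region shared their edges, so merging of offset peaks was not tested. Alternatives covered list length, merging, absence distance, flank width and each library left out. Scripts ran in Python 3.11.15 with pandas 2.3.3 and numpy 2.4.6, and figures in matplotlib 3.10.9.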

Additional observations from a re-analysis of the deposited data

How the results depend on the processing

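The count of 656 regions lay within 1.5 times under equal list length (596, overlapping 187 of the 656) and in the upper 50% of each list (449, overlapping 45). Membership thus depended on list length more than the count did. Merging of peaks up to 200 bp apart gave 659, with 609 of the 656, and a required overlap of 50 bp gave 654, with 635. Absence within 1 kb gave 520 and inclusion of X and Y 665. The count was 2522 with a peak in at least 2 of 3 WT libraries and 713 to 1470 with 1 library left out, settings that loosen the rule. The excess of flanking peaks in WT kept its direction in every setting run, at 0.0936 points for 1 to 10 kb, 1.08 for 1 to 200 kb, 0.432 with equal list length, 0.575 in the upper 50% and 0.372 to 0.467 with 1 library left out. That direction can follow from choosing the private regions in these same libraries, so it is not independent support. With the replicate number as a block (27 relabellings) the 0.421 points gave exact p = 0.0741, and autosome calls fell from 5 to 0, as they did with equal list length, in the upper 50% and with any 1 library left out (0 to 0). With the block the smallest exact p is 0.037, which at least 15 autosomes would have to reach, so that 0 and those with fewer libraries say nothing about stability; the cause under equal length and in the upper 50% was not tested. Deviations of same-numbered libraries correlated at -0.00477 to 0.00645, so the numbers were not taken as pairs, and 8 of 18 comparisons of a library with another line were highest at its own number. The held-out WT share was 56.9 ± 0.833% with lists of equal length. Within 10 kb of listed genes lay 6 regions in place of 23, and within 2.5 kb of gene ends 86 (13.1%, against 22% of all regions) in place of 53. No tag counts per peak were used, so a missing peak is not shown to be closed chromatin.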

Other observations

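Outside the autosomes, X and Y held 3774 regions. Of these, 9 met the same rule for WT, 223 for TetR and 13 for TetR-MYBTA.

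The reverse pattern, with no peak in any WT library and one in each of the other 6, was found in 163 autosomal regions. Regions with peaks in WT and in 1 construct line were more numerous: 1314 had a peak in 3 WT and 3 TetR libraries and in 0 of TetR-MYBTA, and 289 in 3 WT and 3 TetR-MYBTA libraries and in 0 of TetR. With lists of equal length, regions chosen as WT-private on 6 libraries had a peak in 16.6 ± 0.557% in the held-out TetR library and in 16.5 ± 1.04% in the held-out TetR-MYBTA library (SD over 3 rounds), where full lists gave 21.2% and 15.1%.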
